A study of Mus musculus with 12 samples.

Results

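To examine the late step of reprogramming, 4 arrays of mature induced pluripotent stem cells (iPSCs) were compared with 3 arrays of sorted cells. The sorted cells came from day 6 of astrocyte reprogramming, and these are 7 of the series' 12 mouse arrays. Only 2 of the iPSC arrays come from astrocytes. The other 2 come from fibroblasts and are not a later point of the same astrocyte course. The day 6 cells, which the labels call intermediate-state cells, came from astrocytes grown from postnatal day 3 mouse cortex. These astrocytes were Sox1-GFP-negative and Sox1+/-, with a green fluorescent protein (GFP) reporter for Sox1, a transcription factor of the early neural plate. They were infected with retroviruses for Oct4 (Pou5f1), Klf4, Sox2 and c-Myc and kept in embryonic stem cell (ESC) medium with 15% serum and 1000 U/ml leukaemia inhibitory factor (LIF). At day 6 the cells that had become Sox1-GFP-positive were taken. The first iPSC group, 2 arrays, was established from astrocytes and carries the same Sox1-GFP reporter with Sox1+/-. The second, also 2 arrays, is the line iPS-MEF-Ng-20D-17, made from mouse embryonic fibroblasts (MEFs) with a Nanog-GFP-IRES-Puro reporter, so that group is 1 line, and no Sox1 reporter is given for it. Both iPSC groups grew on MEFs stopped from dividing with mitomycin C, in ESC medium with 15% serum or 15% serum replacement and 1500 U/ml LIF. No feeder layer is named for the day 6 cells. Starting cell, reporter and line all differ between the iPSC groups and cannot be told apart. Feeder, LIF dose, sort and time in culture differ between day 6 cells and both iPSC groups, and these too cannot be told apart from the late step itself.

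In the later part of reprogramming, cells are known to switch on their own copies of the pluripotency genes. The transcription factors Oct4, Sox2, Nanog and Esrrb then bind together at each other's control regions and hold the state without the delivered viruses. Oct4 and Sox2 can bind side by side on a composite DNA element, an octamer site joined to a Sox site, and the Nanog promoter is a well known example. Silencing of retroviruses, expression of the de novo DNA methyltransferases and loss of transcription factors of the old cell type are other textbook features of established pluripotent cells.

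Promoters of a pair of genes that rose are shown because Nanog was not among the delivered factors while Pou5f1 was. Each run is the 250 bases before the start of the gene in the RefSeq table of build GRCm38.p6, 5′ to 3′ on the strand of the gene. For Nanog, at chr6:122707239-122707488 (+ strand), the capitals mark the composite Oct4 and Sox2 element, TTTGCAT and ACAA with 1 base between them, 75 to 64 bases before the start. For Pou5f1, at chr17:35505782-35506031 (+ strand), they mark a GC box, GGGCGG, 45 to 40 bases before the start.
Nanog: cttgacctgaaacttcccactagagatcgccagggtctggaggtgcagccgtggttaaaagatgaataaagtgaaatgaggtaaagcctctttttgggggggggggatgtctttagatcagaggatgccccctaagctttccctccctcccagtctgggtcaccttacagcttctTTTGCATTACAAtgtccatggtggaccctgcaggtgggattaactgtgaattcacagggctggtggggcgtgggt
Pou5f1: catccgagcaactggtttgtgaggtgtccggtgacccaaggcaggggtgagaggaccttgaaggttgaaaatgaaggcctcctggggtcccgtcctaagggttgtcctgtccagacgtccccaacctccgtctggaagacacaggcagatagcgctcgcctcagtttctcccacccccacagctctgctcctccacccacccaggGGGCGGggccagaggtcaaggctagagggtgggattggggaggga

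Values are log2 of the deposited array intensities, and a fold change is the mean over the 4 iPSC arrays minus the mean over the 3 day 6 arrays, in log2 units with its standard error (SE). A gene was called at an adjusted p under 0.05 in limma with a log2 fold change of 1 or more in size, and "in both" means called in each iPSC group with the same sign and in the pooled comparison. Of 19938 genes, 449 (2.25%) were higher in both iPSC groups and 450 (2.26%) lower. These shares are the background for every list count below. The 899 genes are 4.51% of those tested. Their 4 iPSC arrays lay wholly above or wholly below the day 6 arrays in each of the 899, which also held for 38.5% of all genes (18.7% above, 19.8% below). The genes higher in both had a median fold change of 1.70 and a highest one of 5.88. For the lower genes the median was -1.50 and the lowest -5.35. Changes of 2 or more were about equally split, 131 higher and 109 lower, and 38 genes rose and 23 fell by 3 or more. With the iPSC arrays pooled, 627 genes (3.14%) were higher and 560 (2.81%) lower. Of these 1187 (5.95%), 288 were not called in both groups. The median over all genes was -0.02.

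**Figure D1:**
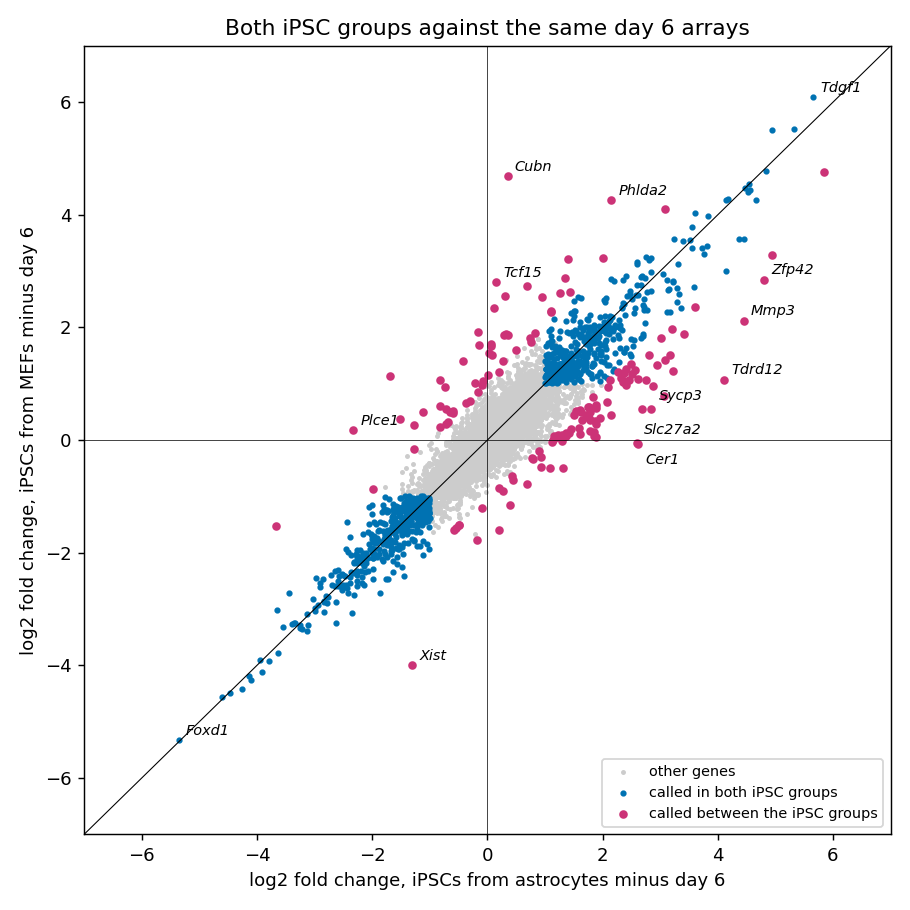
Each point is 1 of 19938 genes, with the log2 fold change of iPSCs from astrocytes over day 6 cells on the horizontal axis and that of iPSCs from MEFs on the vertical axis. The 2 axes share the 3 day 6 arrays, so points lean toward the diagonal for that reason too. Blue marks genes called in both groups, apart from 38 that are drawn in magenta, and magenta the 148 genes called between the iPSC groups, such as Cubn, far from the diagonal.

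Arrays of the same group correlated at 0.992 to 0.996 across genes, day 6 with iPSC arrays at 0.956 to 0.963, and the 2 kinds of iPSC with each other at 0.989 to 0.990. The labels were checked on marker genes. All 8 pluripotency markers were higher in both iPSC groups, with a mean log2 level of 10.84 to 11.10 on the iPSC arrays and 6.72 to 6.76 on the day 6 arrays. The 7 measured neural stem cell markers had a mean of 7.70 to 7.79 in day 6 cells and 7.43 to 7.59 on the iPSC arrays. Their summed intensity went the other way, 1668 to 1766 at day 6 and 2539 to 2576 on the iPSC arrays. Members differed in direction, from -2.72 for Pax6 to 2.03 for Sox2, which is also a pluripotency marker. The mean of the 7 markers was 10.16 to 10.25 in neural stem cells and 9.99 to 10.25 in astrocytes, so they do not tell neural stem cells from astrocytes. Sox1, by whose reporter the day 6 cells were sorted, read 8.27 to 8.53 in them and 8.20 and 8.32 in neural stem cells. Markers of MEF feeders were also higher on all 4 iPSC arrays, as described with the matrix genes. The series design calls the replicates biological, and nothing says that they came from separate cultures, so p values reflect how far these arrays spread, and that spread may be technical.

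Transcription factors of the pluripotent state rose. Of 23 measured core factors, 14 were higher in both iPSC groups and none was lower, with a median of 1.56. Pou5f1, one of the delivered factors, stood at 7.40, 7.41 and 7.65 on the day 6 arrays, at 11.94 and 11.96 in astrocyte iPSCs and at 12 and 11.92 in MEF iPSCs. The groups did not overlap, and the 4 iPSC values spanned less than the 3 day 6 values. The fold change was 4.47 ± 0.15 (SE, limma adjusted p = 1.83e-09). The probe set may also read viral Pou5f1 in day 6 cells, and its part in these values was not tested. Nanog, the homeodomain factor whose promoter is shown above, read 7.93, 7.72 and 8.24 at day 6. It reached 11.24 and 11.31 in astrocyte iPSCs and 11.20 and 10.96 in MEF iPSCs, a rise of 3.21 ± 0.12 (adjusted p = 5.26e-09) with no overlap.

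Some factors rose from below 6.87, the median level of all genes on the arrays. Utf1, a chromatin-bound protein of undifferentiated cells, was at 6.21 to 6.35 at day 6, and at 11.60 and 10.83 in astrocyte iPSCs and 11.74 and 11.81 in MEF iPSCs. Every iPSC array was thus far above day 6, and the rise of 5.23 ± 0.15 was the largest in the list (adjusted p = 9.14e-10). Esrrb, an orphan nuclear receptor, went from 5.77 to 5.99 at day 6 to between 9.10 and 9.62 in the iPSCs (3.53 ± 0.11, adjusted p = 1.68e-09). Zfp42 (Rex1), a zinc finger protein used as a naive marker, rose in both groups but not equally. It read 5.34, 5.84 and 5.25 at day 6, 10.21 and 10.38 in astrocyte iPSCs, and 8.45 and 8.21 in MEF iPSCs. The pooled rise was 3.83 ± 0.12 (adjusted p = 1.68e-09), and the astrocyte iPSCs were higher than the MEF iPSCs by 1.96 ± 0.16 (adjusted p = 5.14e-05).

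Of the other delivered factors, Sox2 went from 8.56 to 8.76 at day 6 to 10.64 to 10.77 in the iPSCs, a rise of 2.03 ± 0.07 (adjusted p = 1.95e-09). Sox2 was at 11.12 to 11.28 in astrocytes, so the day 6 arrays were the lowest of these groups. Myc rose by 1.81 ± 0.13 (adjusted p = 8e-07). Its values were 7.14 to 7.42 at day 6, 8.89 and 8.69 in astrocyte iPSCs and 9.50 and 9.37 in MEF iPSCs. Klf4 read 7.43, 7.29 and 7.29 at day 6, 8.07 and 8.26 in astrocyte iPSCs and 9.03 and 8.68 in MEF iPSCs. Its pooled rise of 1.17 ± 0.13 (adjusted p = 2.67e-05) passed, but it was not called in both groups. Sox1 did not reach the fold limit, at -0.41 ± 0.08 (adjusted p = 0.00176), with values of 7.98 to 8.01 on the 4 iPSC arrays, all below day 6.

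**Figure D2:**
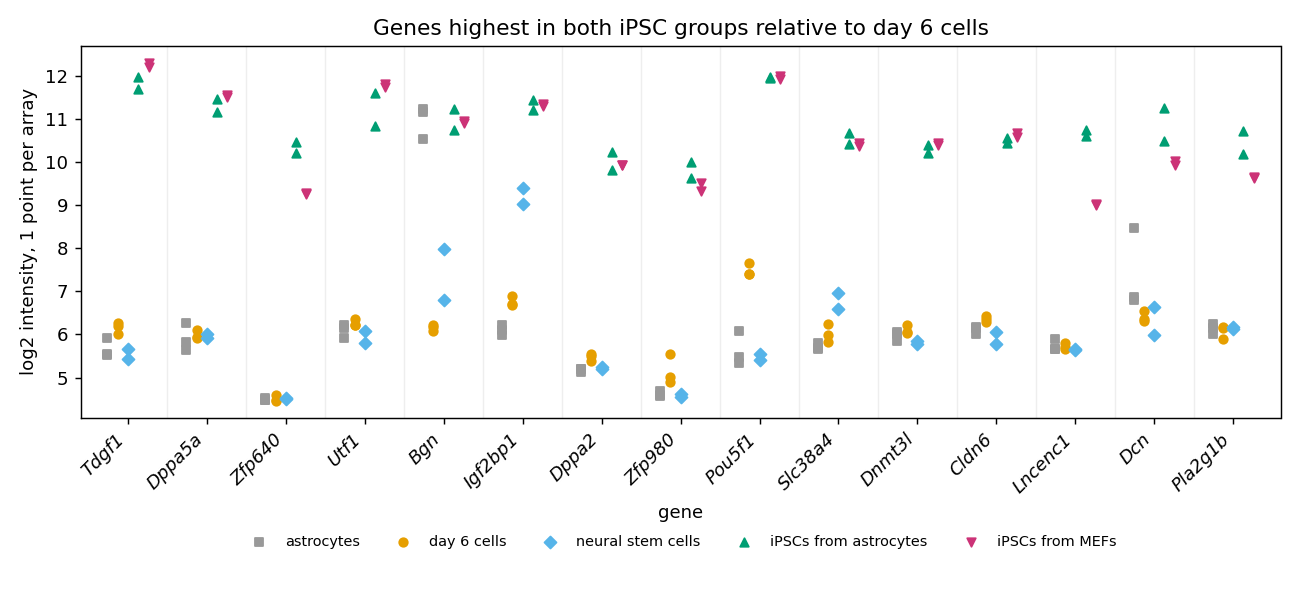
Log2 intensity of the 15 genes with the highest pooled fold changes among genes higher in both iPSC groups, 1 point per array, in the 5 groups of the series. The 3 day 6 arrays lie below the 4 iPSC arrays for every gene. Zfp640 and Lncenc1 are higher in astrocyte than in MEF iPSCs, and Bgn and Dcn are matrix genes made by fibroblasts.

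Of 20 measured proteins tied to pluripotency other than these factors, 17 were higher in both groups and none was lower in both, with a median of 1.85. Tdgf1 (Cripto), a membrane co-receptor for the ligand Nodal, had the largest rise of all named genes on the deposited scale. After 16 intensity units were subtracted, Zfp640, a zinc finger gene, was ahead of it, at 7.03 against 6.24. Tdgf1 stood at 6.20, 6.26 and 6.02 at day 6, at 11.96 and 11.69 in astrocyte iPSCs and at 12.30 and 12.21 in MEF iPSCs. The groups were far apart, by 5.88 ± 0.11 (adjusted p = 4.45e-11). Dppa5a, an RNA-binding protein of early embryos, went from 5.93 to 6.10 to between 11.15 and 11.55 (5.43 ± 0.13, adjusted p = 1.97e-10). Dppa2, a DNA-binding protein of pluripotent cells, rose by 4.51 ± 0.09 (adjusted p = 4.67e-11), and Lin28a, which blocks maturation of let-7 microRNAs, by 3.02 ± 0.09 (adjusted p = 6.58e-10). Their iPSC arrays lay at 9.82 to 10.24 and 9.43 to 9.99, with day 6 at 5.38 to 5.55 and 6.56 to 6.78. The 3 members not called higher were Fut9, Jam2 and Cobl, which were singled out after their values were seen. Cobl, an actin nucleator, differed by -1.17 pooled.

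Among the 15 highest risers were several genes outside these lists. Zfp640 and Zfp980, zinc finger genes, rose by 5.30 ± 0.07 (adjusted p = 3.29e-12) and 4.47 ± 0.14 (adjusted p = 1.30e-09). Zfp640 was at 4.46 to 4.59 at day 6 and at 10.22, 10.47, 9.25 and 9.28 on the iPSC arrays, with the astrocyte iPSCs above the MEF iPSCs. Its day 6 values lie under 5, the 10th percentile of all genes, so its fold change depends on the treatment of low values and was 7.03 after 16 units were subtracted. Igf2bp1, an RNA-binding protein of embryonic cells, rose by 4.55 ± 0.10 (adjusted p = 9.68e-11), from 6.69 to 6.89 to between 11.21 and 11.43. Its level in neural stem cells was also high, at 9.39 and 9.03. Lncenc1, a long noncoding RNA of embryonic stem cells, rose by 4.12 ± 0.07 (adjusted p = 2.90e-11). Pla2g1b, a secreted phospholipase, rose by 3.97 ± 0.12 (adjusted p = 8.91e-10), from 5.90 to 6.17 to between 9.64 and 10.71.

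Promoter letters of the genes higher or lower in both were set beside those of all RefSeq promoters. These cover 27025 genes and not only the 19938 tested, and the shares over the tested genes were not computed. RefSeq promoters of 250 bases were found for 331 of the 449 higher genes (447 promoters) and for 350 of the 450 lower genes (459 promoters). The octamer ATGCAAAT, on either strand, lay in 12 promoters of higher genes (2.68%), 7 of lower genes (1.53%) and 1.60% of all 32851 promoters. These counts are small, and several promoters of a gene were counted separately. The composite element, whose octamer part can overlap an octamer match, lay in 2 promoters of higher genes, both entries of Nanog, in none of lower genes and in 11 in all. The GC box GGGCGG lay in 58.2% of promoters of higher genes, 58.6% of those of lower genes and 32.7% of all. A longer form, GGGGC repeated 2 times, lay in 13.6%, 6.97% and 6.31%. These are descriptions of letters in a window, with motifs chosen after results were seen, and they do not show binding.

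Nodal and Lefty signalling belongs to the early embryo, where Nodal is a ligand of the TGF-beta family and the Lefty proteins are its secreted inhibitors. Of 14 measured members, 5 were higher in both iPSC groups and none lower, with a median of 0.70. Besides Tdgf1, the inhibitors Lefty1 and Lefty2 rose by 3.60 ± 0.13 (adjusted p = 2.98e-09) and 3.57 ± 0.12 (adjusted p = 2.91e-09). Lefty1 read 5.61 to 5.78 at day 6, 8.94 and 8.64 in astrocyte iPSCs and 10.07 and 9.56 in MEF iPSCs, so it was lower in astrocyte iPSCs by 1.02 ± 0.16 (adjusted p = 0.0042). Foxh1, the DNA-binding partner of the Smad proteins, rose by 2.15 ± 0.11 (adjusted p = 8.30e-08). Nodal itself, named after its value was seen, rose by 1.83 ± 0.09 (adjusted p = 4.09e-08), from 6.48 to 6.61 at day 6 to between 7.99 and 8.68.

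Markers of the formative and primed states, which follow naive pluripotency, rose in part, with 4 of 12 higher in both groups, none lower in both and a median of 0.84. Without day 6 replicate 3 or astrocyte iPSC replicate 1, 1 was lower in both. Otx2, a homeodomain factor of the epiblast and forebrain, read 5.94, 5.96 and 6.38 at day 6, 9.97 and 9.41 in astrocyte iPSCs and 8.52 and 8.39 in MEF iPSCs. It rose by 2.98 ± 0.22 (adjusted p = 1.08e-06), and the astrocyte iPSCs were higher by 1.23 ± 0.29 (adjusted p = 0.0294). Fgf5, a growth factor of the primed epiblast, rose by 1.85 ± 0.12 (adjusted p = 3.09e-07) and again was higher in astrocyte iPSCs, by 1.53 ± 0.15 (adjusted p = 0.000199). Sfrp2, a secreted Wnt inhibitor, and Wnt8a, a Wnt ligand, rose by 2.29 ± 0.12 (adjusted p = 8.45e-08) and 1.40 ± 0.10 (adjusted p = 1.19e-06).

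Enzymes that write new DNA methylation rose. Of 13 measured genes of DNA methylation and demethylation, 4 were higher and 1 lower in both, with a median of -0.03. Dnmt3l, the cofactor of the de novo enzymes, stood at 6.06, 6.23 and 6.04 at day 6 and at 10.39, 10.20, 10.43 and 10.39 on the iPSC arrays. The 4 iPSC arrays lay close together and 4.24 ± 0.07 above day 6 (adjusted p = 2.90e-11). The de novo methyltransferases Dnmt3b and Dnmt3a rose by 3.54 ± 0.07 (adjusted p = 6.18e-11) and 2.52 ± 0.12 (adjusted p = 3.11e-08). Tet1, which oxidizes methylated cytosine, rose by 2.17 ± 0.09 (adjusted p = 1.58e-08), from 8.68 to 8.98 to between 10.80 and 11.11. Tet3, a related enzyme singled out after its value was seen, was called lower at -1.20, and that call was lost with the mean of its probe sets. Dnmt1, the maintenance enzyme, differed by -0.11 and its partner Uhrf1 by 0.16, both named after their values were seen.

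Chromatin complexes changed in single members. In the Polycomb and histone methylation list, 3 of 26 were higher and 1 lower in both groups, with a median of 0.08. Bmi1, a ring finger subunit of Polycomb repressive complex 1 known for silencing the Ink4-Arf locus, was at 9.26, 9.24 and 8.96 at day 6 and at 6.63 to 6.95 on the iPSC arrays. It fell by 2.35 ± 0.12 (adjusted p = 5.24e-08). Cbx7, a chromodomain subunit of the same complex, rose by 1.47 ± 0.06 (adjusted p = 2.16e-08). Mtf2 and Jarid2, accessory proteins of Polycomb repressive complex 2, rose by 1.29 ± 0.07 (adjusted p = 1.60e-07) and 1.12 ± 0.10 (adjusted p = 3.47e-06). In the list of 18 BAF subunits, a nucleosome remodelling complex, Smarca2 (Brm) alone was called. This ATPase went from 9.66 to 9.91 at day 6 to 6.35, 7.21, 7.18 and 6.79 in the iPSCs (-2.92 ± 0.19, adjusted p = 3.95e-07).

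Genes of the germline and of retrotransposon silencing had 3 of 24 members higher in both groups and 8 higher when pooled, with a median of 0.75, and none lower. Mael, a piRNA pathway protein, was at 4.87 to 4.94 at day 6 and at 8.48, 7.58, 7.31 and 7.08 on the iPSC arrays (2.70 ± 0.16, adjusted p = 1.88e-07). Its day 6 values too lie under the 10th percentile, and its fold change was 3.67 after 16 units were subtracted. Tdrd12, a Tudor domain protein of the same pathway, read 5.22 to 5.28 at day 6, 9.44 and 9.29 in astrocyte iPSCs, but only 6.43 and 6.23 in MEF iPSCs. Both iPSC groups were above day 6, by 2.59 ± 0.07 when pooled (adjusted p = 4.72e-10), and they differed by 3.04 ± 0.09 from each other (adjusted p = 2.14e-08). Stag3, a meiotic cohesin subunit, rose by 1.13 ± 0.12 (adjusted p = 2.10e-05). This list was dim at day 6 and its count depended on how low values were treated, with 7 higher in both and 14 pooled after 16 intensity units were subtracted. The 7 measured genes of the 2-cell stage had no call in limma, and the fold changes were -0.21 to 0.11. Of these 7, 1 had an unadjusted p under 0.05, as had 8103 of all 19938 genes.

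Imprinted genes, which are read from 1 parental copy, rose in 7 of 20 cases in both groups and fell in none, with a median of 0.82. Slc38a4, an amino acid transporter, was at 6.24, 5.99 and 5.82 at day 6 and at 10.67, 10.41, 10.38 and 10.45 in the iPSCs (4.46 ± 0.11, adjusted p = 3.32e-10). Phlda2, a regulator of placental growth, rose by 3.20 ± 0.09 (adjusted p = 8.66e-10). It was at 6.66 to 6.85 at day 6, 9.08 and 8.73 in astrocyte iPSCs and 10.97 and 11.06 in MEF iPSCs. Peg3, a zinc finger gene read from the paternal copy, rose by 2.11 ± 0.22 (adjusted p = 1.88e-05) and was likewise lower in astrocyte iPSCs, by 1.52 ± 0.29 (adjusted p = 0.0117).

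Meg3, a maternally read long noncoding RNA whose silencing is known from some mouse iPSC lines, was higher in both groups. Its values were 7.11, 7.14 and 7.31 at day 6, 10.38 and 10.26 in astrocyte iPSCs and 9.77 and 9.93 in MEF iPSCs, a rise of 2.90 ± 0.22 (adjusted p = 1.15e-06). The region between Dlk1 and Dio3 around it, which holds a large microRNA cluster, was then read gene by gene, a choice made after the rise of Meg3 was seen. RefSeq lists 103 genes there and 48 were measured, of which 4 were higher in both and 31 had all 4 iPSC arrays above day 6, against 18.7% of all genes. Among its 40 measured microRNA genes, 39 had a positive difference and 26 had all 4 iPSC arrays above day 6, with a median of 0.24. These 26 include small differences between dim values, such as 0.04 for Mir376c and 0.09 for Mir381. Mir300 and Mir329 were called higher in both groups and Mir382 in the pooled comparison. Mir300 read 4.82 to 4.86 at day 6 and 6.42, 6.04, 5.90 and 6.07 in the iPSCs (1.27 ± 0.09, adjusted p = 7.27e-07). Its day 6 values lie under 5, the 10th percentile of all genes, as do those of Mir382, at 4.71 to 4.96. Fold changes from such low values depend on how these are treated. The fold changes were 1.11 ± 0.10 for Mir329 (adjusted p = 5.21e-06) and 1.19 ± 0.06 for Mir382 (adjusted p = 7.38e-08). These probe sets read transcripts over the microRNA genes, and mature microRNAs were not measured. The mature sequences of these 3 genes, from RefSeq, are printed because they are the members of the cluster that were called, with the seed (bases 2 to 8) in capitals. None of the 6 shares a seed with another of the 6, and the seed of miR-329-3p is shared with miR-362-3p in the RefSeq table.
miR-300-3p: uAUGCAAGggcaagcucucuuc
miR-300-5p: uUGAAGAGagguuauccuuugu
miR-329-3p: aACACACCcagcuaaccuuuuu
miR-329-5p: aGAGGUUUucugggucucuguu
miR-382-3p: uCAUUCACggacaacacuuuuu
miR-382-5p: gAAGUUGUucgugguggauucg

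**Figure D3:**
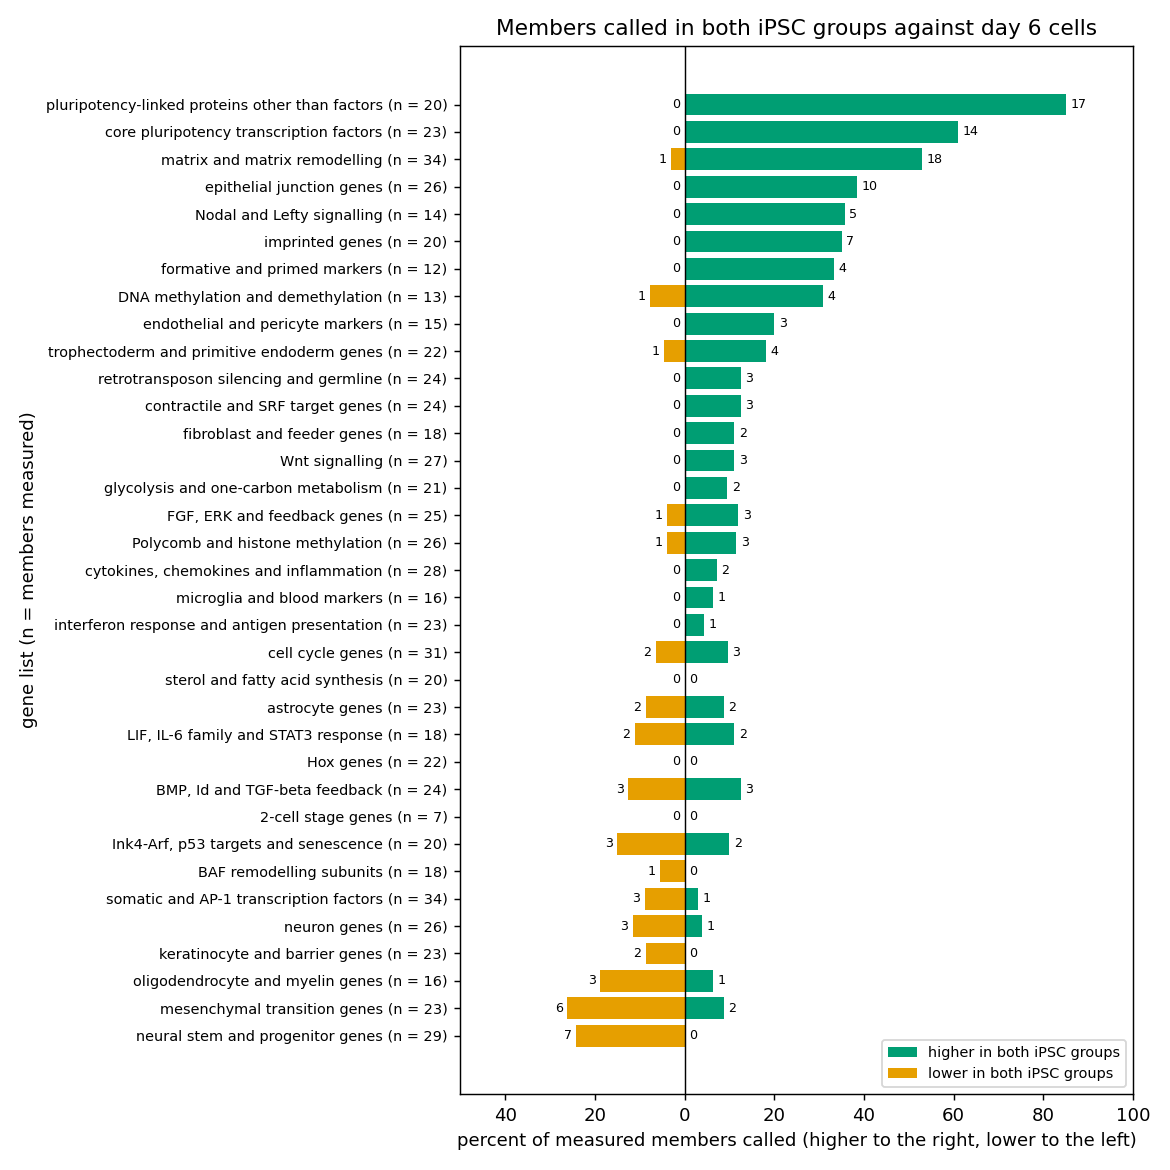
Share of measured members of each gene list called higher (right, green) or lower (left, orange) in both iPSC groups against day 6 cells, with the number of genes at each bar's end and the number measured beside the list's name. Over all genes tested the shares are 2.25% and 2.26%. The 2 pluripotency lists and the matrix list reach furthest to the right, and neural progenitor and mesenchymal transition genes furthest to the left.

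Epithelial junction genes, which hold pluripotent colonies together, were higher in both groups in 10 of 26 cases and lower in both in none (median 0.77), or in 1 without day 6 replicate 3. Cldn6, a tight junction claudin of embryonic epithelia, was at 6.36, 6.28 and 6.42 at day 6 and at 10.56, 10.43, 10.57 and 10.67 in the iPSCs, with little spread on either side (4.20 ± 0.08, adjusted p = 4.45e-11). Ap1m2, a sorting adaptor of epithelial cells, Cldn4, another claudin, and Krt18, a simple epithelial keratin, rose by 2.40 ± 0.08, 2.11 ± 0.08 and 2.06 ± 0.14, with the largest adjusted p at 5.25e-07. Cdh1 (E-cadherin), which seals epithelial contacts, read 8.58 to 8.92 at day 6, 10.65 to 10.88 in the iPSCs and 6.24 to 6.49 in astrocytes and neural stem cells. Its rise was 1.98 ± 0.09 (adjusted p = 3.44e-08), and Cdh1 was named after its values were seen.

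Genes of the extracellular matrix were higher in the iPSCs, and so were markers of fibroblasts. Of 34 measured matrix and matrix remodelling genes, 18 were higher in both iPSC groups and 1, Timp3, was lower, with a median of 1.28. Bgn, a small proteoglycan, was at 6.09 to 6.21 at day 6 and at 10.75, 11.24, 10.90 and 10.96 in the iPSCs (4.81 ± 0.25, adjusted p = 6.97e-08). Its astrocyte level was 10.54 to 11.23. Dcn, its relative and a fibroblast product, was at 6.31 to 6.54 at day 6 and at 10.48, 11.26, 10.03 and 9.92 in the iPSCs (4.01 ± 0.36, adjusted p = 4.69e-06). Tnc, a matrix glycoprotein, rose by 3.63 ± 0.07 (adjusted p = 4.49e-11), though astrocytes had more of it, at 11.33 to 11.52. Mmp3, a matrix protease, rose by 3.29 ± 0.19 (adjusted p = 1.42e-07), with 9.30 and 10.20 in astrocyte iPSCs against 7.62 and 7.22 in MEF iPSCs.

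The markers of fibroblasts and MEF feeders moved with these genes. Of 8 such markers, 7 were higher when pooled and 6 in both groups, with a median of 1.83. Their mean log2 level was 6.50 to 6.58 on the day 6 arrays, 8.45 and 9.34 on those of astrocyte iPSCs and 8.25 and 8.19 on those of MEF iPSCs, and the summed intensity went from 856 to 936 to between 2957 and 6407. The markers are not specific to feeders, since astrocytes had a mean of 7.55 to 8.06 and a summed intensity of 4664 to 5326. The lowest marker on the iPSC arrays was Lum, a proteoglycan of connective tissue, at 7.36 and 8.63 in astrocyte iPSCs and 5.87 and 6.13 in MEF iPSCs, with 4.75 to 4.80 at day 6. Replicate 2 of the astrocyte iPSCs was the highest iPSC array for 8 of 8 markers and for 18 of 18 matrix genes called in both. The same array was highest for 85 of the 449 genes higher in both (18.9%) and for 5 of the 31 such genes of the pluripotency lists. Of the 34 matrix genes, 6 are themselves among the markers, and the 13 called genes that are not gave the same array in 13 of 13 cases. Without this array 18 matrix genes were higher in both. The part of feeder cells in the matrix result was not tested. In such bulk samples, a change in the share of a cell type and a change in RNA per cell cannot be told apart.

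**Figure D4:**
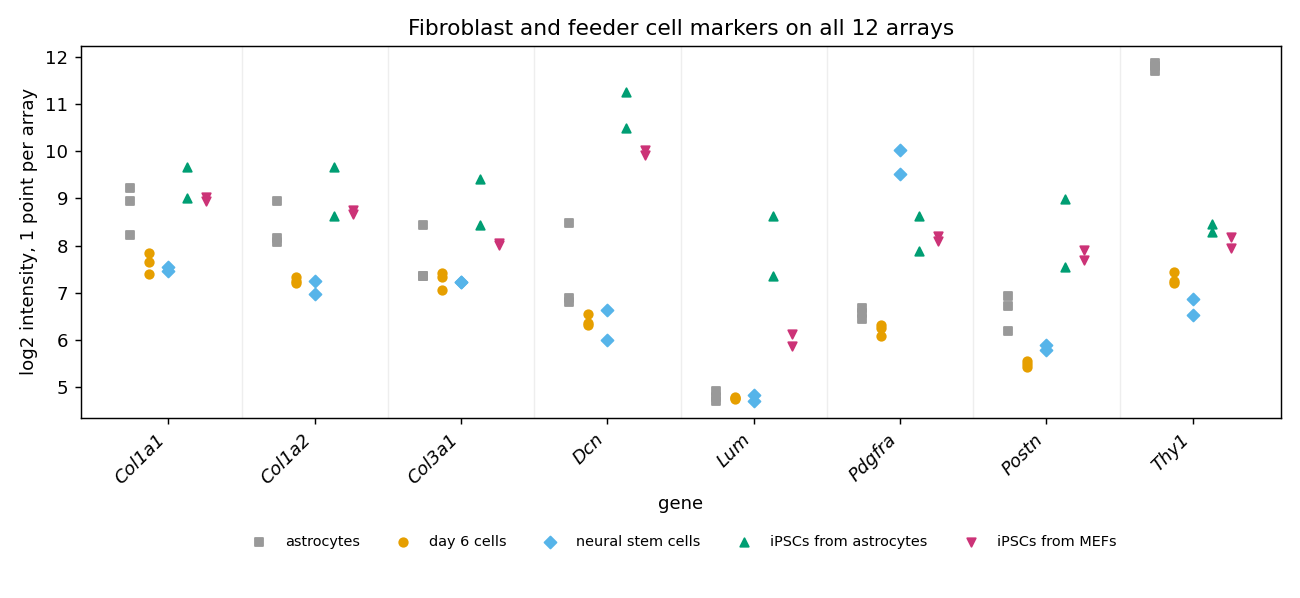
Log2 intensity of the 8 markers of fibroblasts and feeders on all 12 arrays, 1 point per array. The iPSC arrays lie above the day 6 arrays for every marker, and the upper of the 2 astrocyte iPSC points is replicate 2 in each case.

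Of 18 measured genes of another fibroblast and feeder list, which holds none of the markers but Thy1, 2 were higher in both and 3 pooled, with a median of 0.60. The pooled count was 8 after 16 units were subtracted, 6 without replicate 1 of the astrocyte iPSCs and 5 without day 6 replicate 3. Has2, a hyaluronan synthase, rose by 1.94 ± 0.07 (adjusted p = 5.92e-09) and Fbln1, a matrix protein, by 1.37 ± 0.14 (adjusted p = 1.09e-05). Dpt, a dermal matrix protein, read 6.24, 7.39, 5.88 and 6.03 in the iPSCs and 5.23 to 5.48 at day 6. Its pooled rise of 1.02 ± 0.20 (adjusted p = 0.00214) became 0.74 without replicate 2 of the astrocyte iPSCs. Contractile genes had 3 of 24 higher in both, 5 higher when pooled and none lower. Among them was Cnn1 (1.44 ± 0.15, adjusted p = 1.56e-05), a calponin of smooth muscle, which was at 11.93 to 12.50 in astrocytes. Replicate 2 of the astrocyte iPSCs was the iPSC array with the highest fibroblast and feeder markers. It was not the highest iPSC array for Cnn1, nor for Myl9 and Actn1, other contractile genes, and for Has2 it was the lowest, at 7.08. The pooled rise of Tagln, also a contractile gene, was 1.16 to 1.20 with 1 array left out, and lowest without this array. The part of feeder cells in these values was not tested.

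Of 23 measured mesenchymal transition genes, 6 were lower and 2 higher in both groups, with a median of -0.58. Anxa1, a membrane-binding annexin, was at 11.03, 11.13 and 10.13 at day 6 and at 7.48 to 8.77 in the iPSCs (-2.62 ± 0.29, adjusted p = 2.90e-05). Cd44, the hyaluronan receptor, was at 9.58 to 9.78 at day 6 and at 7.04, 7.55, 7.35 and 7.29 in the iPSCs (-2.35 ± 0.11, adjusted p = 3.30e-08). Cdh2 (N-cadherin) fell by 2.10 ± 0.11 (adjusted p = 9.93e-08) and S100a6, a calcium-binding protein, by 1.75 ± 0.19 (adjusted p = 2.06e-05). The 2 that rose were Tgfbi, a matrix protein, and Fn1 (fibronectin), by 1.40 ± 0.14 (adjusted p = 1.61e-05) and 1.14 ± 0.11 (adjusted p = 9.43e-06). Replicate 2 of the astrocyte iPSCs, the array with the most feeder marker signal, had the highest iPSC value of these 6 genes, and for the 4 that fell it still lay below day 6. Without this array, 7 members were lower and 1 higher in both. The part of feeder cells in these genes was not tested.

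Some of the genes that fell most were low in astrocytes and others high. Foxd1, a forkhead factor of developing kidney stroma and forebrain, had the largest fall. It was at 10.96, 11.22 and 11.07 at day 6, at 5.68 to 5.80 on the 4 iPSC arrays and at 5.58 to 6.16 in astrocytes and neural stem cells (-5.35 ± 0.10, adjusted p = 4.49e-11). The day 6 cells were thus the sole group with a high level. The same pattern held for Tgm3, a transglutaminase of epithelia, which read 10.61, 10.61 and 10.62 at day 6 and 5.98 to 6.52 on the other 9 arrays (-4.18 ± 0.07, adjusted p = 2.90e-11). Ano1, a calcium-gated chloride channel, fell by 4.58 ± 0.16 (adjusted p = 2.91e-09), with 8.41 and 7.55 in neural stem cells and 6.09 to 6.26 in astrocytes. Akr1c18, a progesterone-degrading reductase, fell by 4.48 ± 0.19 (adjusted p = 1.39e-08), and Gpr50, an orphan receptor related to melatonin receptors, by 4.01 ± 0.11 (adjusted p = 4.42e-10). Both were at 5.07 to 6.44 on every array outside day 6.

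Among the other top fallers the astrocyte level varied. Cd109, a surface protein that binds TGF-beta, was at 11.25 to 11.32 at day 6, 10.92 to 11.09 in astrocytes and 6.60 to 7.42 in the iPSCs (-4.34 ± 0.16, adjusted p = 5.26e-09). Meis2, a homeodomain factor of the brain, was at 9.89 to 10.12 at day 6, between the astrocyte level of 11.27 to 11.33 and the iPSC level of 6.18 to 6.44 (-3.71 ± 0.07, adjusted p = 2.90e-11). Akr1c14, a steroid reductase, went from 9.98 to 10.27 in astrocytes over 8.06 to 8.71 at day 6 to 4.96 to 5.21 in the iPSCs (-3.34 ± 0.13, adjusted p = 6.53e-09). Ccdc141, a centrosomal protein of migrating neurons, fell by 4.16 ± 0.19 (adjusted p = 2.49e-08) from 10.04 to 10.08 at day 6, and its astrocyte level was 8.51 to 8.65. St3gal6, a sialyltransferase, fell by 3.43 ± 0.07 (adjusted p = 4.78e-11) and was at 7.36 to 7.53 in astrocytes. Necab1, a neuronal calcium-binding protein, and Gabra2, a GABA receptor subunit, fell by 3.92 ± 0.15 (adjusted p = 5.11e-09) and 3.30 ± 0.19 (adjusted p = 1.88e-07), with astrocyte levels of 5.72 to 5.85 and 5.81 to 6.21.

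**Figure D5:**
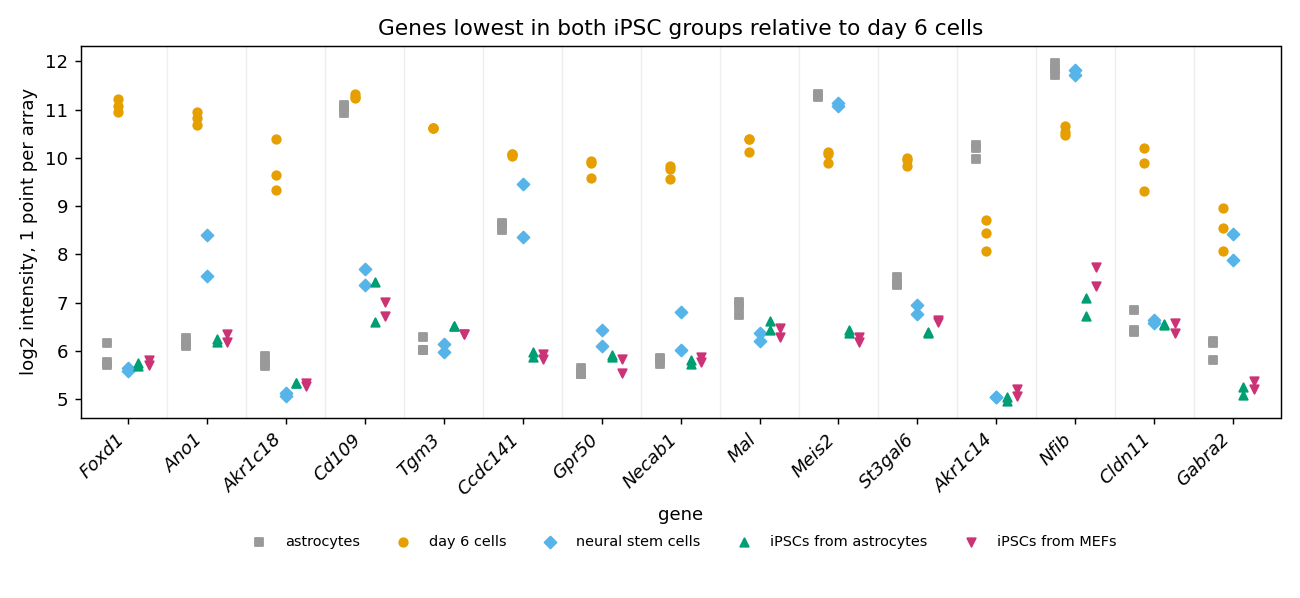
Log2 intensity of the 15 genes with the lowest pooled fold changes among genes lower in both iPSC groups, 1 point per array, in all 5 groups. The 4 iPSC arrays lie below day 6 in each. Foxd1, Tgm3 and Gpr50 are high at day 6 and low in the 4 other groups, while Cd109, Meis2, Akr1c14 and Nfib are also high in astrocytes.

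Among 34 somatic and AP-1 transcription factors, 3 were lower in both, 1 was higher, and the median was -0.11. These are 8.82% and 2.94%, beside 2.26% and 2.25% of all genes. The 3 lower genes belong to 1 family, the nuclear factor I proteins Nfia, Nfib and Nfix, which drive glial differentiation. Nfia was at 9.61, 9.65 and 9.70 at day 6, at 6.57, 6.75, 6.56 and 6.66 in the iPSCs and at 11.13 to 11.33 in astrocytes (-3.01 ± 0.07, adjusted p = 1.61e-10). Nfib fell by 3.33 ± 0.12 (adjusted p = 2.91e-09) and Nfix by 3.26 ± 0.18 (adjusted p = 9.74e-08). The iPSC arrays were apart from day 6 for each, and Nfix was highest in replicate 2 of the astrocyte iPSCs, at 8.58. Nfic, the fourth member, differed by -0.60 ± 0.10 (adjusted p = 0.000534), under the fold limit, and was named after its value was seen. Tcf7l1, a repressor of Wnt targets, was the gene higher in both (1.23 ± 0.18, adjusted p = 0.000244). That count of 1 became 5 without day 6 replicate 1, 2 without replicate 1 of the astrocyte iPSCs, and 4 after 16 units were subtracted.

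Neural stem and progenitor genes fell in 7 of 29 cases in both groups, rose in none and had a median of -0.32. Pax6, a homeodomain factor of radial glia, was at 8.45 to 8.57 at day 6, close to the astrocyte level of 8.67 to 9.01, and at 5.53, 5.70, 5.86 and 6.10 in the iPSCs (-2.72 ± 0.09, adjusted p = 1.75e-09). Cd24a, a surface glycoprotein, Zic1, a zinc finger factor of neural tissue, and Sox11, a factor of newborn neurons, fell by 1.89 ± 0.09, 1.58 ± 0.10 and 1.56 ± 0.12, with adjusted p of at most 1.74e-06. Sox11 was higher at day 6 (9.63 to 9.85) than in astrocytes (6.99 to 7.48), and in the iPSCs it was at 8.02 to 8.31, between the 2. Nes and Fabp7, which mark neural stem cells and were named after their values were seen, were already low at day 6, at 7.16 to 7.63 and 7.21 to 7.62, against 10.44 or more and 13.09 or more in astrocytes and neural stem cells.

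Of 26 neuron genes, 3 were lower and 1 higher in both, with a median of 0.02. These are 11.5% and 3.85%, beside 2.26% and 2.25% of all genes. The higher count was 2 without day 6 replicate 2, and the lower count 2 without MEF iPSC replicate 1. Nefl, the light neurofilament, was at 11.67 to 11.83 at day 6, well above astrocytes at 6.35 to 6.78 and neural stem cells at 8.04 and 7.89. It read 8.34, 8.27, 9.10 and 8.99 in the iPSCs (-3.08 ± 0.10, adjusted p = 1.30e-09). Ina, the filament protein alpha-internexin, went the other way, from 6.42 to 6.64 at day 6 to 9.87 to 10.15 in the iPSCs (3.48 ± 0.16, adjusted p = 2.52e-08). Ncam1, an adhesion molecule, and Stmn2, a microtubule regulator, fell by 1.49 ± 0.15 (adjusted p = 1.16e-05) and 1.26 ± 0.19 (adjusted p = 0.00031). Stmn2 stayed high in the iPSCs, at 10.70 to 11.22.

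Of 16 oligodendrocyte and myelin genes, 3 were lower in both and 1 higher, with a median of -0.04. Mal, Cldn11 and Pllp encode membrane proteins of myelin that epithelia also use, and they fell, with fold changes of -3.86 ± 0.10 (adjusted p = 2.82e-10), -3.30 ± 0.18 (adjusted p = 8.92e-08) and -2.23 ± 0.11 (adjusted p = 5.24e-08). Mal was at 10.13 to 10.40 at day 6 and at 6.28 to 6.61 in the iPSCs. The lineage markers Sox10, Mag and Mbp were at most 0.21 from 0 in fold change, and the mean of these 3 was 6.22 to 6.52 on the 7 arrays. The higher member was Pdgfra (1.99 ± 0.16, adjusted p = 2.67e-06), which is also one of the fibroblast markers.

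Of 23 astrocyte genes, 2 were lower and 2 higher in both, with a median of -0.05. Acsbg1, an acyl-CoA synthetase of brain, was at 9.85 to 9.97 at day 6 and at 6.77 to 7.07 in the iPSCs (-2.99 ± 0.11, adjusted p = 4.89e-09). Cst3, a secreted protease inhibitor, fell by 1.42 ± 0.10 (adjusted p = 7.77e-07). Apoe, a lipid carrier, rose by 2.62 ± 0.12 (adjusted p = 2.14e-08), from 8.33 to 8.87 to between 11.00 and 11.40. Slc1a3, a glutamate transporter, rose by 1.33 ± 0.10 (adjusted p = 1.51e-06) to 7.69 to 8.33, far under its astrocyte level of 12.05 to 12.12. Without replicate 1 of the astrocyte iPSCs, 1 of these 2 genes was called higher in both.

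Keratinocyte and barrier genes had 2 of 23 lower and none higher in both, with a median of -0.14. Perp, a desmosome protein and p53 target, was at 10.61 to 10.92 at day 6 and at 8.62 to 9.35 in the iPSCs (-1.71 ± 0.13, adjusted p = 1.61e-06). Emp1, an epithelial membrane protein, fell by 1.52 ± 0.15 (adjusted p = 1.23e-05). Of the 4 keratinocyte markers, the keratins Krt5 and Krt14 and the factor Trp63 differed by 0.06, -0.20 and -0.13, and Sfn, a p53 target of epithelia, by 1.02 ± 0.13 (adjusted p = 6.51e-05), a pooled call. Their summed intensity was 391 to 449 on the day 6 arrays and 559 to 603 on the iPSC arrays, and their part in the result was not tested. Without day 6 replicate 1 or MEF iPSC replicate 2, 1 gene of the list was higher in both.

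The Ink4-Arf locus encodes brakes on the cell cycle that oppose reprogramming. In the list around it, 3 of 20 genes were lower and 2 higher in both, with a median of -0.02. Cdkn2a, which encodes p16 and p19Arf, was at 9.51, 9.49 and 9.63 at day 6, at 7.93 to 8.23 in astrocytes and at 7.73, 7.99, 7.58 and 7.57 in the iPSCs. It fell by 1.83 ± 0.08 (adjusted p = 2.52e-08). Cdkn2c (p18) fell by 1.32 ± 0.14 (adjusted p = 2.38e-05). Igfbp7, a secreted growth factor binder, rose by 2.75 ± 0.20 (adjusted p = 9.46e-07) and was highest in replicate 2 of the astrocyte iPSCs, at 10.01.

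In the cell cycle list, 3 of 31 genes were higher and 2 lower in both, with a median of 0.18. Cdk6 and Ccnd2 (cyclin D2), a kinase and a cyclin of G1, fell by 2.08 ± 0.13 (adjusted p = 2.87e-07) and 2 ± 0.16 (adjusted p = 2.10e-06). Ccnd2 was at 11.21 to 11.27 at day 6 and at 8.81, 9.72, 9.25 and 9.16 in the iPSCs. Mycn, a relative of Myc, rose by 1.97 ± 0.14 (adjusted p = 6.95e-07), from 7.60 to 7.74 to between 9.04 and 10.03. Ccne1 (cyclin E1), the third riser with Myc and named after its value was seen, rose by 1.54 ± 0.10 (adjusted p = 3.29e-07). Mki67 and Top2a, proliferation markers named in the same way, differed by -0.55 and 0.23.

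In the BMP and TGF-beta list, 3 of 24 were higher and 3 lower in both (median 0.05). Id1, an inhibitor of neural differentiation induced by BMP, fell by 2.20 ± 0.22 (adjusted p = 1.02e-05), from 10.28 to 10.99 to between 8.26 and 8.74, and Ltbp1, which holds latent TGF-beta, by 2.19 ± 0.16 (adjusted p = 1.24e-06). Bmp4, a ligand, rose by 2.62 ± 0.13 (adjusted p = 4.91e-08), more in MEF iPSCs (9.97 and 9.96) than in astrocyte iPSCs (8.71 and 8.76), and Smad7, an inhibitory Smad, by 1.83 ± 0.10 (adjusted p = 8.04e-08). In the LIF and STAT3 list, 2 of 18 were higher and 2 lower in both (median -0.16). Pim1, a kinase induced by STAT3, rose by 1.57 ± 0.13 (adjusted p = 2.16e-06), and Osmr, the oncostatin M receptor, fell by 1.53 ± 0.16 (adjusted p = 2.13e-05). Without replicate 1 of the astrocyte iPSCs 1 was lower in both. LIF doses differed between day 6 cells and iPSCs, and their part was not tested.

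In the FGF list, 3 of 25 were higher and 1 lower in both (median 0.50). Fgf4, the autocrine growth factor of pluripotent cells, was at 8.14 to 8.22 at day 6 and at 9.78 to 10.51 in the iPSCs (1.89 ± 0.13, adjusted p = 5.25e-07). Fgf15 rose by 1.43 ± 0.11 (adjusted p = 2.00e-06), and Egfr, a receptor for EGF, fell by 1.28 ± 0.12 (adjusted p = 5.79e-06). In the Wnt list, 3 of 27 were higher in both and none lower (median 0.17), among them the receptor Fzd7 (1.79 ± 0.09, adjusted p = 5.55e-08).

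Of 22 trophectoderm and primitive endoderm genes, 4 were higher and 1 lower in both (median 0.42). They were led by Pdgfra, by Eomes, a T-box factor (1.77 ± 0.15, adjusted p = 3.19e-06), and by Lama1, a laminin chain (1.70 ± 0.08, adjusted p = 2.42e-08), while Tfap2a, a factor of surface ectoderm, fell by 1.55 ± 0.09 (adjusted p = 1.15e-07). Endothelial and pericyte markers had 3 of 15 higher in both (median 0.07), with Eng, a TGF-beta co-receptor, at 1.75 ± 0.07 (adjusted p = 1.37e-08) and Pecam1, an adhesion molecule also present on mouse embryonic stem cells, at 1.32 ± 0.11 (adjusted p = 3.30e-06). Interferon genes had 1 of 23 higher in both (Bst2, a virus-tethering protein, 1.24 ± 0.18, adjusted p = 0.000186), with a median of 0.16. That single gene is 4.35% of the list, beside 2.25% of all genes.

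Cytokines and chemokines had 2 of 28 higher in both, with a median of 0.19. Ccl2, a monocyte attractant, read 8.22, 9.60, 8.03 and 7.82 in the iPSCs (1.99 ± 0.24, adjusted p = 5.38e-05). Il33, an alarmin, read 6.64, 8.28, 7.24 and 7.02 (1.39 ± 0.29, adjusted p = 0.00268), and its fold change was 0.98 without replicate 2 of the astrocyte iPSCs. That array was the highest for both genes, as it was for the feeder markers, whose part was not tested. The count was 4 after 16 units were subtracted and 1 without that array, without day 6 replicate 3 or without MEF iPSC replicate 2. Among 16 microglia and blood markers, Lyz2, the macrophage lysozyme, was called (1.34 ± 0.27, adjusted p = 0.00247). This single gene is 6.25% of the list, beside 2.25% of all genes. That call in both groups was lost without any 1 of day 6 replicates 1 and 2, astrocyte iPSC replicate 2 and either MEF iPSC array, where the count was 0. Aif1, Csf1r, Cx3cr1, Itgam and Ptprc, the defining markers, had a mean of 5.60 to 5.91 on the 7 arrays.

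Of 21 genes of glycolysis and one-carbon metabolism, 2 were higher in both (median 0.24), namely the glucose transporter Slc2a3 (1.35 ± 0.20, adjusted p = 0.000306) and Gldc, a glycine-cleaving enzyme known from pluripotent cells (1.33 ± 0.07, adjusted p = 1.20e-07). The 20 sterol and fatty acid synthesis genes had no call in limma at the fold limit (median 0.14). An unadjusted p under 0.05 was found in 15 of them, and in 8103 of all 19938 genes. Without any 1 of the day 6 arrays, astrocyte iPSC replicate 2 or MEF iPSC replicate 1, 1 gene of this list was called pooled. Scd1, a fatty acid desaturase, differed by -0.99 ± 0.09 (adjusted p = 5.37e-06). Other members went up, with Insig1 at 0.97 (limma adjusted p = 0.000392), Lss at 0.72 and Mvd at 0.71, all under the fold limit. The 22 Hox genes measured had no call in limma, with 3 at an unadjusted p under 0.05 beside the 8103 of all genes. They lay within 4.72 to 7.19 on the 7 arrays, with fold changes of -0.13 to 0.40.

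The iPSC groups were then compared with each other, since a call in 1 group and not in the other does not show a difference. Between them, 92 genes (0.461%) were higher in astrocyte iPSCs and 56 (0.281%) lower, and 38 of the 899 genes called in both were among these 148 (0.742%). Against day 6, astrocyte iPSCs had 1218 calls (6.11% of genes; 3.29% higher, 2.82% lower) and MEF iPSCs 1219 (6.11%; 3.18% higher, 2.93% lower). Of these, 73.8% and 73.7% were called in both. Of the 288 genes called when pooled but not in both, 46 differed between the iPSC groups. The largest such difference was in Cubn, an endocytic receptor of visceral endoderm, kidney and gut. It read 5.58 to 5.64 at day 6, 6.12 and 5.83 in astrocyte iPSCs and 10.30 and 10.32 in MEF iPSCs, a difference of -4.34 ± 0.11 (adjusted p = 1.20e-08). Tcf15, a bHLH factor of epiblast and somites, was also high in MEF iPSCs alone, at 9.75 and 9.58 against 6.81 to 7.04 in the other arrays compared (-2.65 ± 0.08, adjusted p = 2.14e-08). Plce1, a phospholipase C, was low in astrocyte iPSCs alone, at 6.05 and 6.18, with 8.31 to 8.67 at day 6 and in MEF iPSCs (-2.51 ± 0.18, adjusted p = 2.58e-05).

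The other 3 of the 6 largest differences ran the opposite way. Cer1, a secreted Nodal and BMP inhibitor, read 8.29 and 8.50 in astrocyte iPSCs and 5.62 to 5.88 at day 6 and in MEF iPSCs, a difference of 2.69 ± 0.12 (adjusted p = 6.41e-07). Slc27a2, a fatty acid transporter, was at 9.15 and 8.96 in astrocyte iPSCs and 6.35 to 6.58 elsewhere on the 7 arrays (2.66 ± 0.09, adjusted p = 7.89e-08). Sycp3, a protein of the synaptonemal complex in meiosis, was at 7.87 and 7.46 in astrocyte iPSCs, 5.64 and 5.08 in MEF iPSCs and 4.73 to 4.88 at day 6 (2.30 ± 0.16, adjusted p = 2.49e-05). Of these 6 genes, 5 lost the pooled call when the 4 iPSC arrays were treated as a single group. Their adjusted p then lay between 0.0781 for Cubn and 0.211 for Plce1, and their pooled values describe 1 iPSC group rather than both.

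Genes of the sex chromosomes also divided the groups. Xist, the RNA that coats the inactive X chromosome, was at 9.91, 9.38 and 10.23 at day 6, 8.45 and 8.62 in astrocyte iPSCs and 5.74 and 5.94 in MEF iPSCs. It was lower in both, by 2.65 ± 0.21 pooled (adjusted p = 2.07e-06), and the iPSC groups differed by 2.69 ± 0.28 (adjusted p = 0.000272). Eif2s3y, a Y-linked translation factor gene, read 7.68, 7.50 and 6.86 at day 6, 5.43 and 5.88 in astrocyte iPSCs and 8.55 and 8.42 in MEF iPSCs, so day 6 lay between the iPSC groups. Uty followed the same order, and Kdm5d, at 5.18 to 5.27 on all 4 iPSC arrays, did not. No sex is given in the labels, and the part of the cells' sex in other differences between the groups was not tested.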

How the data were processed

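RNA was hybridised to 12 Affymetrix Mouse Gene 1.0 ST arrays. The authors deposited 1 table of linear intensity values, normalised by RMA per the submitters' processing notes (version not given in the sources used here). Values of 20.2 to 15436 on 28853 probe sets were turned into log2 of the deposited intensities. Of these probe sets, 21789 carried 1 gene symbol, giving 19938 genes. Several probe sets of a gene, as in 999 genes, were reduced to the one with the highest mean; other probe sets of the genes named for it (Igf2bp1, Dppa2, Zfp640, Ina, Ccdc141, Nfia, Nfib, Tet1) moved the same way. The number of arrays, 7 in the comparison, limits the precision.

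limma 3.58.1 in R 4.3.3 fitted a mean per group over all 12 arrays, so that astrocytes and neural stem cells lend their spread. Motifs were sought by exact match on both strands. P values were adjusted by Benjamini and Hochberg over all genes. Counts were made with pandas 2.3.3 and numpy 2.4.6 under Python 3.11.15, and figures with matplotlib 3.10.9. The fit was also run on simulated data with normal spread, in which the iPSC groups did not differ from each other. The arrays are unlike this, and no result here rests on that run. Named genes are the 15 highest and 15 lowest pooled changes among genes called in both, up to 4 members per list with the largest change, the 4 delivered factors and Sox1, the 6 largest differences between iPSC groups among genes called in 1 of them, and Xist with Y-linked genes. Ribosomal protein pseudogenes, receptors of the olfactory or vomeronasal kind, and genes with predicted, Riken or clone names were kept out of the first and the fourth of these. Others are named after their values were seen. The members, the 35 lists (765 measured entries) and the tests were chosen with earlier results of these data known.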

Additional observations from a re-analysis of the deposited data

Results flagged for a closer look

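Among the 164 named genes, 23 differed between the iPSC groups by the test of the difference itself (astrocyte iPSCs minus MEF iPSCs, log2). Pluripotency and early embryo genes lay on both sides. Those higher in astrocyte iPSCs were Zfp42 (1.96), Lncenc1 (1.67), Otx2 (1.23), Fgf5 (1.53), Eomes (1.39) and Cer1 (2.69), and the zinc finger gene Zfp640 (1.08) was higher too. Germline genes on the same side were Tdrd12 (3.04) and Sycp3 (2.30). Mmp3 (2.33), Slc27a2 (2.66), Flt1 (1.19), a receptor for VEGF, and Xist (2.69) were also higher there. The early embryo genes lower in astrocyte iPSCs were Lefty1 (-1.02), Tcf15 (-2.65), Lama1 (-1.19) and Cubn (-4.34). Bmp4 (-1.23), Plce1 (-2.51) and the imprinted genes Peg3 (-1.52) and Phlda2 (-2.11) were also lower there. The Y-linked genes Eif2s3y (-2.83) and Uty (-1.88) were lower there too.

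For 8 named genes, 1 of the 4 iPSC arrays stood apart, by the gap to its neighbour as a share of the whole range. That array was replicate 2 of the astrocyte iPSCs for Cd34 (0.867), Fgf15 (0.927), Osmr (0.912) and Pllp (0.909). It was replicate 1 of the same group for Ltbp1 (0.988), Lyz2 (0.851) and Tcf7l1 (0.843), and replicate 1 of the MEF iPSCs for Akr1c18 (0.839). Chance flags about 1 in 20 groups of values, and 164 genes were examined, so 8 is about the number chance would give. The rule also takes the 4 arrays as 1 set, though they come from 2 iPSC groups. For Akr1c18 the iPSC values lay within 5.26 to 5.34.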

How the results depend on the processing

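With no fold limit the pooled calls rose to 6845 (3557 higher, 3288 lower), those in both groups to 4422 (2212 and 2210) and those between the iPSC groups to 1150 (653 and 497), by construction. Leaving out 1 array at a time gave 1148 to 1220 pooled calls (603 to 649 higher, 528 to 583 lower), 844 to 933 in both (413 to 470 and 423 to 473) and 135 to 176 between the iPSC groups (73 to 118 and 41 to 62). Where that leaves a group with 1 array, the array is assumed to vary like the other groups. The largest counts in both, 933 with 470 higher, came without replicate 2 of the astrocyte iPSCs. Between 823 and 899 of the 899 genes were called in both under every setting that gives that count, and no result changed sign. With the replicate number as a block, a pairing the labels do not state, 1188 genes were called pooled (612 higher, 576 lower), 915 in both (442 and 473) and 150 between the iPSC groups (93 and 57). The block kept 879 of the 899, and of the named genes Pdk1 (0.89) and Plce1 (-0.94) lost their call. Deviations of arrays with the same number correlated at 0.08 to 0.41. Other scalings moved the median of all genes from -0.02 to -0.01 or -0.04. Named genes near the fold limit (Dpt, Wnt5a, Oasl2, Vcam1, Sfn, Lgals7, Nrg1, Pdk1, Plce1, Il33) lost their call without 1 array or another. With 1 array left out, 1637 list counts stayed within 1.5 times and 43 did not. Under the other settings 1619 did and 131 did not, 106 of these with no fold limit. The causes were not tested. Subtracting 16 units widens differences between low log2 values by construction, and it gave 1432 pooled calls and 1114 in both. Leaving out dim genes gave 1169 and 893. Fold changes of dim genes thus depend on how low values are treated.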

Other observations

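Of the 291 microRNA genes with a symbol of their own on the arrays, 3 were higher in both iPSC groups and 1 lower, where 2.25% and 2.26% of all genes were. In the region between Dlk1 and Dio3, the noncoding RNA DQ267102 was also higher in both, at 8.50, 9.04, 8.78 and 8.77 on the iPSC arrays against 6.48 to 6.73 at day 6 (2.14 ± 0.12, limma adjusted p = 1.44e-07). Rian, another noncoding RNA of the region, read 5.64 to 5.84 at day 6, 7.41 and 7.27 in astrocyte iPSCs and 6.50 and 6.42 in MEF iPSCs, and was called in the pooled comparison and in astrocyte iPSCs, not in MEF iPSCs. Epcam, an epithelial adhesion molecule, read 8.55 to 8.64 at day 6 and 9.43 to 9.88 in the iPSCs, while astrocytes and neural stem cells had 5.37 to 5.68.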
